A study of Mus musculus with 6 samples.

Results

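The genes described here encode the proteins of the cytosolic ribosome. They are the 83 protein-coding genes of the deposited table, among 55487 genes in all, whose symbols name a protein of the large (Rpl) or small (Rps) subunit, with Rplp0, Rplp1, Rplp2 and Rpsa, and without the S6 kinases. Of these, 51 carry a large-subunit symbol and 32 a small-subunit symbol. The choice by symbol takes in the tissue-restricted or alternative paralogs Rpl3l, Rpl7l1, Rpl10l, Rpl22l1, Rpl39l and Rps27l. It leaves out ribosomal proteins with other names, such as Fau, Rpl36al and Rack1.

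RNA came from lung fibroblasts in primary culture from wild-type C57BL/6 mice. Cells were grown with 10% fetal bovine serum and kept in 0.1% serum for 24 h. They then received PBS, the vehicle, or recombinant mouse CIRBP (rmCIRBP) at 1 µg/mL for 24 h. CIRBP is cold-inducible RNA-binding protein, which outside the cell acts as a danger signal. There were 3 libraries in each group, made from polyA-selected RNA and sequenced as 1 batch, with 12105584 to 14262375 counts assigned to genes. It is not stated whether the 3 replicates of a group came from separate animals or cultures. The p-values therefore reflect only how much these libraries varied, and part of that may be technical. As in any bulk culture, fewer cells of a type and less RNA per cell cannot be told apart.

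The ribosome is built from ribosomal RNA and one copy of most of these proteins, assembled in the nucleolus and exported as separate 40S and 60S subunits. Its protein mRNAs are among the most abundant in growing cells. Nearly all of them start with a cytosine followed by a run of pyrimidines, the 5′ terminal oligopyrimidine (TOP) motif, through which LARP1 and the mTORC1 pathway adjust how actively they are translated. A large part of their control is thus in translation, whereas RNA-seq of total polyA RNA measures mRNA level and not translation.

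The sequences around the start sites show that shared feature. RefSeq promoter entries (GRCm38.p6, 250 bases before the annotated start and 50 after) were matched by symbol for 63 of the 83 genes, with 75 starts in all. A run of at least 8 bases beginning with C and continuing in C or T only, on the transcribed strand and within 50 bases of the start on either side, was present at 77.3% of these starts. The same run was present at 28.7% of the 32776 starts of all other genes. On the opposite strand it was present at 15 of the 75 starts and at 31.6% of the others. The windows below hold 30 bases each, 5′ to 3′ on the transcribed strand, with the run nearest the annotated start in capitals. They are shown for members with different levels and fold changes, and for the paralog Rpl7l1, whose window has no such run.
Rpl13a (chr7:45128722-45128751, minus): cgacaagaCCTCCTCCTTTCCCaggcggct
Rps10 (chr17:27635227-27635256, minus): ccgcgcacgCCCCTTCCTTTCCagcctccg
Rps18 (chr17:33955648-33955677, minus): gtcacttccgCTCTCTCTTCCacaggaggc
Rpl15 (chr14:18270968-18270997, minus): gagaaagCCTTCTTCCTTTCCTCTggcggc
Rpl27a (chr7:109519186-109519215, plus): gtgagCTCCTCCCTTTTCCCTTTCTgccac
Rps27 (chr3:90213632-90213661, minus): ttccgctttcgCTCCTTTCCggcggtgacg
Rps27l (chr9:66946063-66946092, plus): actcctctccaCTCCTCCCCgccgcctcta
Rpl7l1 (chr17:46782642-46782671, minus): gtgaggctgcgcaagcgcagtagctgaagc

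The run is 20 bases long in Rpl27a, 17 in Rpl15 and 9 in Rps27. In Rps27l the marked run begins 12 bases before the annotated start, and a second run of 9 bases lies just before it, in lower case. A match of letters is a description and not a mapped cap site, and the absence of a run in the Rpl7l1 window says only that these letters are not there.

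Ribosomal protein mRNAs were abundant in both groups. Together the 83 genes took 3.50%, 3.41% and 3.15% of all counts with PBS, against 3.22%, 3.08% and 2.68% with rmCIRBP. The means were 3.35% ± 0.18 and 2.99% ± 0.28 (SD, n = 3 each). The groups overlapped, since rmCIRBP 1 stood above PBS 3, and the difference of -0.36 percentage points was -0.20 without rmCIRBP 3, the lowest library. The ratio of large-subunit to small-subunit counts was 1.41 ± 0.04 with PBS and 1.39 ± 0.03 with rmCIRBP (SD, n = 3 each).

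Levels between genes were compared as CPM (counts scaled to library size, with the trimmed mean of M values) per kb of the principal annotated mRNA. The highest was Rplp1, an acidic protein of the stalk that recruits elongation factors, at 1766 CPM per kb over the 6 libraries. Rpl41, the shortest ribosomal protein, followed at 1368 CPM per kb, and Rps2, a protein at the mRNA entry of the 40S subunit, had 1039. The order depends on the annotated lengths, and reads counted to copies, described below, were not added. Rps20, for example, with a principal mRNA of 3706 bases, had 417 CPM but 112 CPM per kb. The median over the 80 genes that passed the filter on low counts was 466 CPM per kb, and 76 of the 80 were above 100.

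Only 4 of the 80 lay lower, namely Rps10 at 5.95 CPM per kb, Rpl24 at 13.7, Rpl13a at 36.7 and the paralog Rpl7l1 at 45.0. Rps10, Rpl24 and Rpl13a are proteins of every ribosome, whose subunits are made in equal number. They are also the 3 members with the largest part of their exons inside another annotated gene on the same strand. That part was 38.8% for Rps10 (the readthrough gene RPS10-NUDT3), 71.5% for Rpl24 (Gm28037) and 54.9% for Rpl13a (Gm45713). The next highest was 14.5%, in Rpl32. Gm28037 and Gm45713 had 0 counts in all 6 libraries. RPS10-NUDT3 stands in the deposited table as Gm49804, and it is counted among the copies of Rps10 below. The sources used here do not state how reads that fall on 2 genes were counted, and the part of this overlap in the low levels was not tested. The levels of these 3 genes are therefore uncertain.

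**Figure D1:**
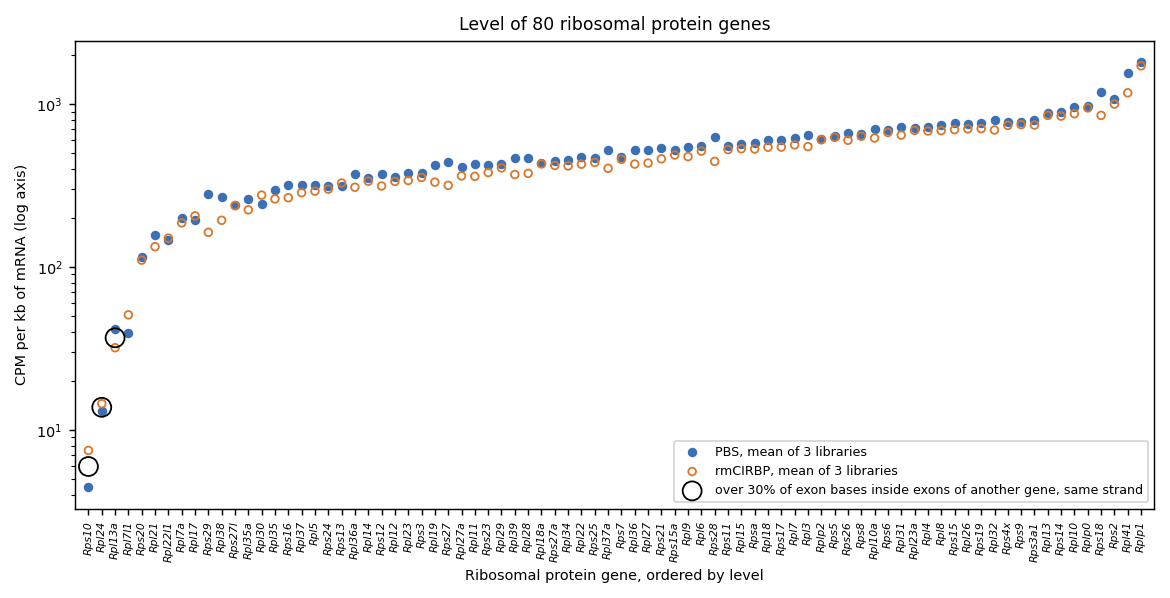
Level of the 80 tested ribosomal protein genes in CPM per kb of mRNA (log axis), ordered from low to high, with the mean of 3 PBS libraries (filled) and of 3 rmCIRBP libraries (open). Large circles mark Rps10, Rpl24 and Rpl13a, the 3 members with the largest same-strand exon overlap, which are also the 3 lowest at 5.95, 13.7 and 36.7 CPM per kb.

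Many members have near-identical processed copies elsewhere in the genome. In the GENCODE vM21 transcripts (GRCm38), 422 annotated genes shared at least 100 stretches of 50 bases with one of 71 members. All of these are called copies here. They include genes that overlap a member on the same strand, namely Gm49804 with Rps10, Gm45713 with Rpl13a and Gm28037 with Rpl24. Over all libraries the copies held a median of 4.43% of the reads of a member and its copies, and over 20% for 14 members. Such members are uncertain, since reads may be divided between the gene and its copy. The coding sequence of Rps27, a zinc-finger protein of the 40S subunit, is identical in the retrogene Rps27rt at all 255 bases, while its paralog Rps27l matches 193 of 253 aligned bases. Coding bases 10 to 69 of each are printed here to show what a read can and cannot tell apart, with capitals where any of the 3 differ (GENCODE vM21, transcribed strand). The genes lie at chr3:90212522-90213651 (minus), chr9:114982366-114982739 (minus) and chr9:66946086-66949516 (plus).
Rps27: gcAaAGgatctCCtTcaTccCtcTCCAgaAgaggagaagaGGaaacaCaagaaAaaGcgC
Rps27rt: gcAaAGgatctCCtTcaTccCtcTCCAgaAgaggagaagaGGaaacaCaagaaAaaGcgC
Rps27l: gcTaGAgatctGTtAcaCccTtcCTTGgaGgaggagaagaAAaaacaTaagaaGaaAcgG

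Rps27 was counted at 240, 92.1 and 127 CPM with PBS and 78.8, 121 and 128 CPM with rmCIRBP. Rps27rt was counted at 78.6, 167 and 97.2 CPM with PBS and 171, 86.8 and 60.3 CPM with rmCIRBP. The library that was highest for Rps27, PBS 1, was the second lowest for Rps27rt, and the library that was lowest for Rps27, rmCIRBP 1, was the highest for Rps27rt. Added together they gave 319, 259 and 224 CPM with PBS and 250, 208 and 189 CPM with rmCIRBP. The coefficient of variation within groups was 44.1% for Rps27 alone and 16.8% for the sum. The log2 fold change (rmCIRBP over PBS) was -0.48 for Rps27 alone and -0.31 with all copies added, neither past the test (edgeR quasi-likelihood adjusted p = 0.391 and 0.258). Without PBS 1 it was 0.01 for Rps27 alone.

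Rpl17, a protein at the exit of the nascent chain tunnel, showed a similar opposite pattern with its processed pseudogene Rpl17-ps10. Rpl17 was at 244, 104 and 104 CPM with PBS and 128, 172 and 178 CPM with rmCIRBP. Rpl17-ps10 was at 118, 188 and 169 CPM with PBS and 169, 104 and 68.6 CPM with rmCIRBP. The coefficient of variation within groups went from 38.9% for Rpl17 alone to 12.9% for the sum.

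Rpl30, a 60S protein, differs from the processed pseudogene Gm12191 at 1 of 348 coding bases. That base is in capitals in coding bases 67 to 126, with the genes at chr15:34440505-34443640 (minus) and chr11:49678710-49679057 (minus).
Rpl30: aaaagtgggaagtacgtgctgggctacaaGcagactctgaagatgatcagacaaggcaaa
Gm12191: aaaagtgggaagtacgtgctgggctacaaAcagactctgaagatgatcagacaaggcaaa
Rpl30 was at 179, 112 and 124 CPM with PBS and 127, 174 and 172 CPM with rmCIRBP, and Gm12191 at 38.3, 52.3 and 47.4 CPM with PBS and 48.8, 27.5 and 14.9 CPM with rmCIRBP. Again the libraries high for the gene were low for the copy. Whether reads of Rps27, Rpl17 or Rpl30 were counted to their copies was not tested. Rpl30 had the third highest fold change among members, 0.19 on the log2 scale, and -0.06 once all copies were added (edgeR quasi-likelihood adjusted p = 0.584 and 0.780).

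Rps10, a protein at the beak of the 40S subunit, differed in that nearly all counts were in its copies. It was counted at only 39, 24 and 21 reads with PBS and 50, 57 and 46 with rmCIRBP. Its processed pseudogene Rps10-ps2 (chr16:20822145-20822640, minus) was counted at 1186, 1091 and 1332 reads with PBS and 1229, 1306 and 1080 with rmCIRBP. All copies together held 97.1% of the reads of Rps10 and its copies. The pair is identical at 491 of 496 aligned bases, and 4 of the 5 differences lie in coding bases 388 to 447, in capitals.
Rps10: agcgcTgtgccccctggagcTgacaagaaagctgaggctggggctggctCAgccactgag
Rps10-ps2: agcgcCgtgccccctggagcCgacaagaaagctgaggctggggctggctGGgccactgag
Rps10 had the highest fold change of the members, 0.76 on the log2 scale with a 95% interval from -0.02 to 1.54 (edgeR quasi-likelihood adjusted p = 0.183), and its groups did not overlap. With the copies added the value was -0.07 (edgeR quasi-likelihood adjusted p = 0.671), in a sum made up almost wholly of reads counted to the copies. The sign thus differed between Rps10 alone and the sum. Whether the reads counted to the copies came from Rps10 was not tested.

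**Figure D2:**
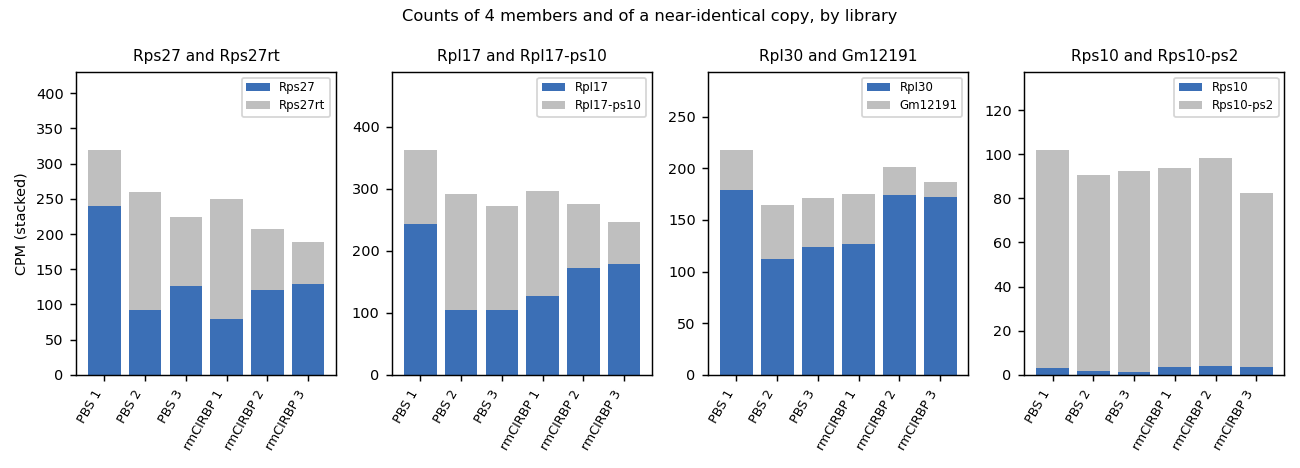
Stacked CPM of Rps27, Rpl17, Rpl30 and Rps10 (blue) and of a near-identical copy (grey) in each of the 6 libraries. For the first 3 pairs the blue and grey parts tend to vary in opposite directions between libraries while their sum varies less. For Rps10 nearly all counts are in the copy.

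The comparison of rmCIRBP with PBS asked whether the ribosomal protein mRNAs changed with the treatment. No member passed an adjusted p of 0.05 in edgeR's quasi-likelihood test, 0 of 80, where 11.5% of the 15801 genes tested did (4.77% lower and 6.74% higher). DESeq2 also called 0 of 80, against 16.6% of all genes (7.42% lower). At an unadjusted p under 0.05 there were 7 of 80 members, beside 28.8% of all genes. The groups did not overlap for 10 of 80 members, beside 34.6% of all genes (17.1% lower). Those were Rpl3, Rpl13a, Rpl21, Rpl23, Rpl28, Rpl32, Rps15 and Rps28, lower with rmCIRBP, and Rpl7l1 and Rps10, higher.

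The estimates were small and mostly on one side. The log2 fold change was below 0 for 73 of 80 members, beside 50.8% of all genes, with a median of -0.11 over the members and -0.01 over all genes. The median was -0.14 for the 48 large-subunit genes tested and -0.10 for the 32 small-subunit genes. The members are expressed together and are not independent of each other, so that 1 library can move all of them. Without PBS 1 the log2 fold change was below 0 for 61 of 80 with a median of -0.06, and without rmCIRBP 3 for 59 of 80 with a median of -0.05. The 95% interval of the fold change lay within 2-fold either way for 76 of 80 members, beside 63.3% of all genes, and within 1.5-fold for 59 of 80, beside 5437 of 15801 genes. Many of those genes have low counts. Of 2046 other genes at a mean of at least 100 CPM, 80.4% lay within 2-fold and 1083 within 1.5-fold. The median standard error was 0.133 both for these genes and for the members. The 4 members whose interval reached beyond 2-fold were Rps10, Rps27, Rps29 and Rpl38. For Rpl38, at -0.47, the interval ran from -1.08 to 0.14.

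**Figure D3:**
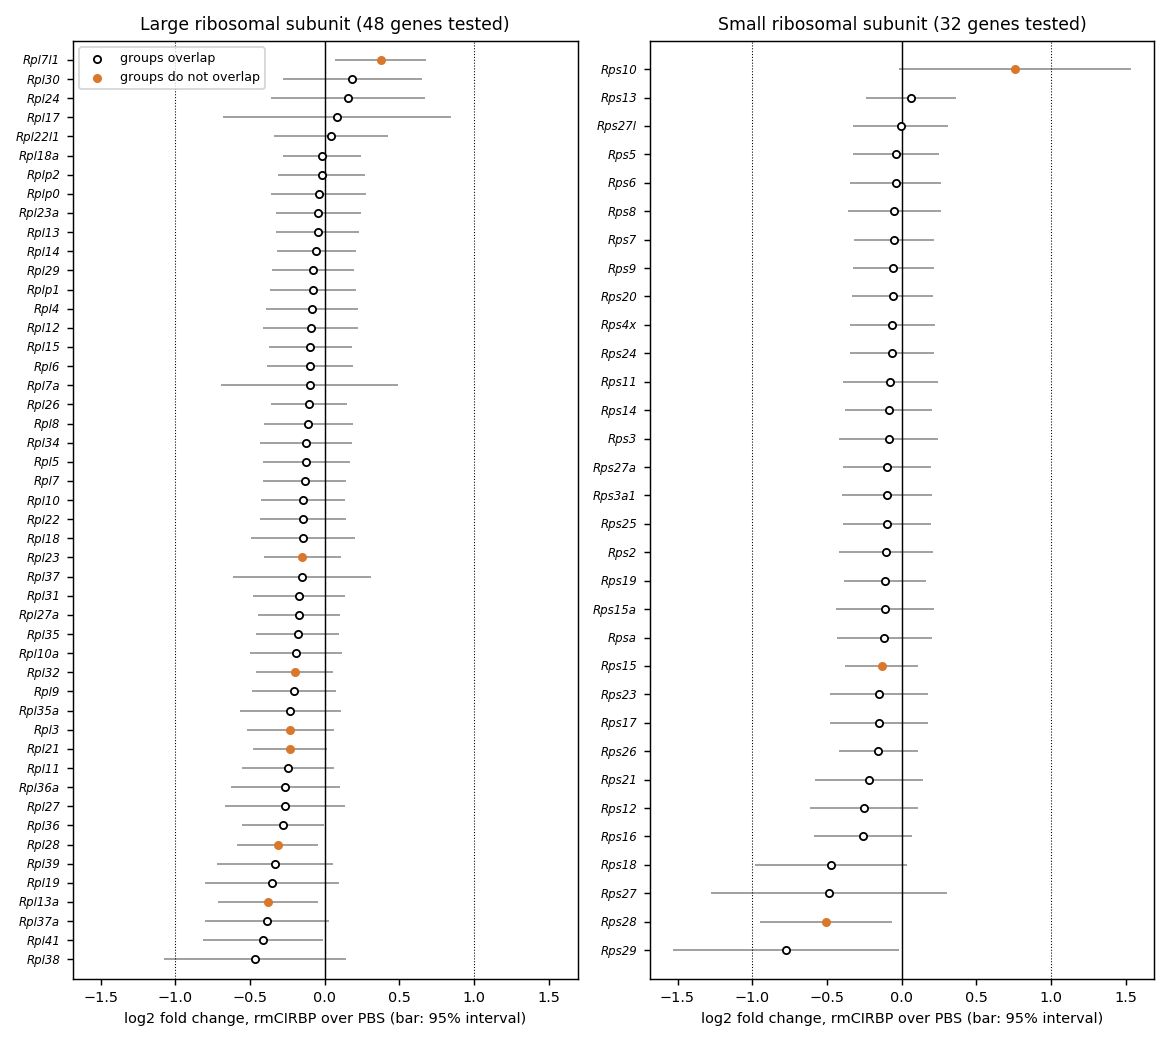
Log2 fold change (rmCIRBP over PBS) of the 48 large-subunit and 32 small-subunit genes tested, with 95% intervals from the edgeR fit; dotted lines mark 2-fold either way. Orange points are the 10 members whose groups did not overlap, and 73 of 80 points lie left of 0.

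Rpl7l1 had the smallest p of the members. It is a paralog of Rpl7 that is known to work in the making of the 60S subunit in the nucleolus. It was at 58.7, 48.5 and 46.9 CPM with PBS and at 64.3, 75.4 and 59.9 CPM with rmCIRBP, so that every rmCIRBP library was above every PBS library. Its log2 fold change was 0.37 ± 0.13 (SE), with an edgeR quasi-likelihood adjusted p of 0.109. Its partner Rpl7, at 717 ± 29.2 and 654 ± 50.4 CPM (SD, n = 3 each), had a log2 fold change of -0.13. The share of Rpl7l1 in the sum of the pair was 7.27%, 6.39% and 6.35% with PBS and 8.40%, 10.3% and 9.07% with rmCIRBP.

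The other paralogs had estimates near 0 or were nearly silent. Rpl22l1, which can stand in for Rpl22, was at 80.6 ± 9.43 and 83.0 ± 16.9 CPM (SD, n = 3 each), with a log2 fold change of 0.04. Rps27l, a known p53 target, was at 119 ± 21.5 and 119 ± 3.49 CPM, with -0.01. Rpl10l, the testis paralog of the X-linked Rpl10, had 0 counts in every library, which allows up to 0.210 to 0.248 CPM for 3 counts, counting error only. Rpl3l, a muscle paralog, had 0, 2 and 1 counts with PBS and 0 in each rmCIRBP library. Rpl39l, a male germline paralog, had 0 counts in each PBS library and 5, 5 and 0 with rmCIRBP. These 3 did not pass the filter and were not tested.

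Rps4l, annotated as a transcribed processed pseudogene of Rps4x and so not a member, had 241, 256 and 249 reads with PBS and 375, 346 and 514 reads with rmCIRBP. The groups did not overlap in CPM, and the log2 fold change was 0.64 ± 0.18 (SE), with an edgeR quasi-likelihood adjusted p of 0.0556. Rps4x itself, at 754 ± 37.3 and 722 ± 57.3 CPM (SD, n = 3 each), had -0.06.

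Among the small-subunit proteins the lowest fold changes were those of Rps29, Rps28 and Rps27. Rps29 (chr12:69157722-69159186, minus), a zinc-binding protein of the 40S head, was at 171, 80.6 and 74.7 CPM with PBS and 82.1, 56.7 and 52.2 CPM with rmCIRBP. PBS 1 stood far above the rest, and rmCIRBP 1 lay above PBS 2 and PBS 3. The log2 fold change was -0.77 ± 0.33 (SE), with an edgeR quasi-likelihood adjusted p of 0.167, and it was -0.28 without PBS 1. With its copy Gm14303 added, which held 40.9% of their joint reads, it was -0.49 (adjusted p = 0.341).

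Rps28 (chr17:33819027-33824562, minus), which lies near the exit of the mRNA channel, was at 223, 150 and 140 CPM with PBS and 136, 121 and 105 CPM with rmCIRBP. The groups did not overlap, by a margin of 140 against 136 CPM. Its fold change of -0.51 ± 0.19 on the log2 scale (SE; edgeR quasi-likelihood adjusted p = 0.130) was -0.26 without PBS 1. Rps26, another protein of the mRNA exit, was at 455 ± 21.4 and 409 ± 30.4 CPM (SD, n = 3 each), with -0.16.

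None of the small-subunit proteins with known roles beyond the ribosome passed the test. Rps3, which also takes part in NF-κB complexes and DNA repair, was at 809, 687 and 661 CPM with PBS and 719, 721 and 590 CPM with rmCIRBP, with a log2 fold change of -0.09 and a 95% interval from -0.42 to 0.24. Rps6, the substrate of the S6 kinases downstream of mTORC1, was at 605 ± 33.6 and 588 ± 66.2 CPM (SD, n = 3 each), with -0.04. Rps19, a protein mutated in Diamond-Blackfan anaemia, was at 483 ± 31.9 and 447 ± 31.0 CPM, with -0.11. Rpsa, which is also known as a laminin receptor, was at 919 ± 10.2 and 848 ± 110 CPM. Rpsa ran from 909 to 929 CPM in the PBS libraries, rmCIRBP 1 and rmCIRBP 2, and stood at 720 CPM in rmCIRBP 3.

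Among the large-subunit proteins Rpl28 and Rpl13a had the smallest p after Rpl7l1. Rpl28 (chr7:4792874-4795066, plus) was at 364, 374 and 345 CPM with PBS and 322, 283 and 265 CPM with rmCIRBP, without overlap. Its log2 fold change was -0.32 ± 0.12 (SE; edgeR quasi-likelihood adjusted p = 0.125). Rpl13a (chr7:45125558-45128761, minus), which outside the ribosome forms part of a complex that silences inflammatory mRNAs, was at 49.5, 40.4 and 40.5 CPM with PBS and 36.7, 35.7 and 27.8 CPM with rmCIRBP. These groups did not overlap either, with a log2 fold change of -0.38 ± 0.15 (SE; adjusted p = 0.134). Rpl13a is one of the 3 members with low counts and large exon overlap described above.

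Rpl41 was at 687, 821 and 541 CPM with PBS and 571, 505 and 463 CPM with rmCIRBP, and rmCIRBP 1 lay above PBS 3. Its log2 fold change was -0.41 (edgeR quasi-likelihood adjusted p = 0.165). Rpl36 was at 203, 213 and 181 CPM with PBS and 182, 155 and 155 CPM with rmCIRBP, with -0.28 (adjusted p = 0.169). For Rpl36, PBS 3 and rmCIRBP 1 were nearly level.

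Rpl5 and Rpl11, which with 5S ribosomal RNA bind MDM2 and so link ribosome assembly to p53, had log2 fold changes of -0.12 and -0.24. Rpl5 was at 651 ± 46.4 and 597 ± 50.6 CPM, and Rpl11 at 355 ± 39.6 and 299.9 ± 29.6 CPM (SD, n = 3 each). Rpl3, which reaches the peptidyl transferase centre, was at 864, 866 and 877 CPM with PBS and 829, 699 and 693 CPM with rmCIRBP. Its groups did not overlap, and its log2 fold change was -0.23 (edgeR quasi-likelihood adjusted p = 0.273). Rpl10, which joins the 60S subunit in the last steps of its maturation, was at 784, 797 and 731 CPM with PBS and 755, 688 and 651 CPM with rmCIRBP, with -0.14. The stalk proteins Rplp0, Rplp1 and Rplp2 had -0.04, -0.08 and -0.02, and in each of the 3 the groups overlapped.

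PBS 1 stood higher for the members with short mRNAs. The 18 members with an annotated mRNA under 500 bases had a median log2 fold change of -0.22, and the 62 longer members -0.10. In PBS 1 the shorter members stood a median of 0.28 above their mean over the 6 libraries on the log2 scale, the longer members 0.13, and 101 other protein-coding genes with mRNAs under 500 bases 0.11. Rps29, Rps28, Rps27 and Rpl38 are among the shorter members, and all 4 were highest in PBS 1. Across the 80 members the log2 ratio of PBS 1 to the mean of PBS 2 and PBS 3 had a Pearson's r of -0.34 with log2 mRNA length, given as a description over genes of the same libraries. The log2 fold change had r of -0.07 with that ratio and 0.26 with log2 mRNA length, over the same 80 genes. Whether length played a part in the fold changes was not tested. PBS 2 stood apart for other members. Rps18, which lies at the subunit interface of the 40S head, was at 622, 883 and 485 CPM with PBS and 531, 487 and 415 CPM with rmCIRBP, and Rpl19 and Rpl27 were also highest in PBS 2.

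**Figure D4:**
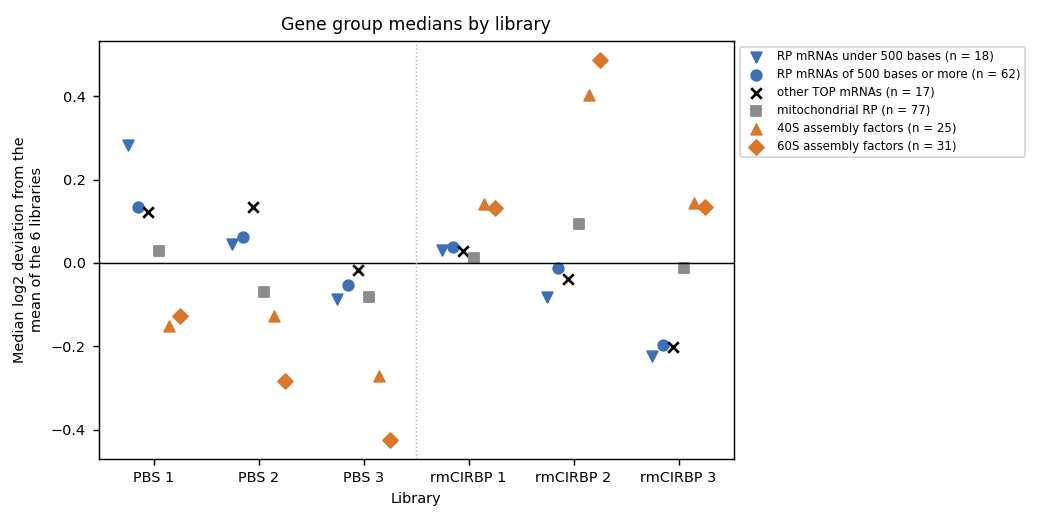
Median log2 deviation of each gene group from its mean over the 6 libraries, by library, with the number of genes in the legend. Ribosomal protein mRNAs ran from high in PBS 1 to low in rmCIRBP 3 with the groups overlapping, while 40S and 60S assembly factors were below 0 in all 3 PBS libraries and above 0 in all 3 rmCIRBP libraries, most of all in rmCIRBP 2.

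Factors that assemble the ribosome, as opposed to its own proteins, included genes that rose with rmCIRBP. Of 31 factors of 60S assembly tested, 13 rose and 0 fell, with a median log2 fold change of 0.50. Of 25 factors of 40S assembly, 9 rose and 0 fell, with a median of 0.36. The test is edgeR's quasi-likelihood test at an adjusted p of 0.05, by which 6.74% of all genes were higher. Ftsj3, a methyltransferase of pre-60S particles, rose from 43.2, 37.4 and 37.1 CPM to 61.6, 71.0 and 66.7 CPM, a log2 fold change of 0.76 (adjusted p = 0.00517). Rrs1, which brings 5S ribosomal RNA with Rpl5 and Rpl11 into the large subunit, rose from 42.5 ± 5.91 to 83.9 ± 15.7 CPM (SD, n = 3 each; 0.98 on the log2 scale, edgeR quasi-likelihood adjusted p = 0.00936). Rrp9, a protein of the U3 particle that processes 40S precursors, rose from 34.2 ± 1.79 to 48.5 ± 2.63 CPM (0.50, adjusted p = 0.0193).

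These counts depended on single libraries. Of the 56 assembly factors together, 22 were called with all libraries, 2 without PBS 2, 3 without PBS 3, 4 without rmCIRBP 1, 9 without rmCIRBP 2, 16 without rmCIRBP 3 and 18 without PBS 1. Over all genes, the calls went from 1818 to 723 without PBS 2. Upper quartile scaling gave 13 of 56. The log2 fold change of 55 of the 56 was above 0 with all libraries. The 16 markers of proliferating cells summed to 526, 212 and 256 CPM with PBS and 535, 679 and 381 CPM with rmCIRBP. All 16 had a log2 fold change above 0, with a median of 0.69. Of the 16, edgeR called 1 (Tyms, higher), beside 6.74% of all genes higher. DESeq2 called 5 higher, beside 1446 of 15801 genes. Of these 16, 9 were called without PBS 1, 3 without rmCIRBP 3 and 0 on leaving out any other library. Their part in the assembly factors' result was not tested.

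Ribosomal RNA synthesis was represented by RNA polymerase I, whose 14 genes had a median of 0.14 with 2 called higher, beside 6.74% of all genes. Polr1a, its largest subunit, rose from 30.9 ± 1.01 to 52.0 ± 9.90 CPM (SD, n = 3 each; edgeR quasi-likelihood adjusted p = 0.0166), and Polr1b rose from 12.8 ± 0.98 to 21.2 ± 3.26 CPM (adjusted p = 0.0261). The 2 calls became 0 without PBS 2 or PBS 3, and 1 without rmCIRBP 1 or rmCIRBP 2. Of 12 nucleolar and small nucleolar particle proteins 1 rose, the methyltransferase Fbl, from 26.4 ± 2.94 to 44.8 ± 8.95 CPM (adjusted p = 0.0249), and it was not called without PBS 2, PBS 3 or rmCIRBP 1. The median of the 12 was 0.63, the highest of the lists of ribosome assembly. Without PBS 1 or rmCIRBP 3, 3 of the 12 were called. Of 5 chaperones of single ribosomal proteins, such as Grwd1 for Rpl3 and Tsr2 for Rps26, edgeR called 0 and DESeq2 1, with 3 at an unadjusted p under 0.05 and a median of 0.37. The difference between these lists and the ribosomal protein genes was not tested.

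**Figure D5:**
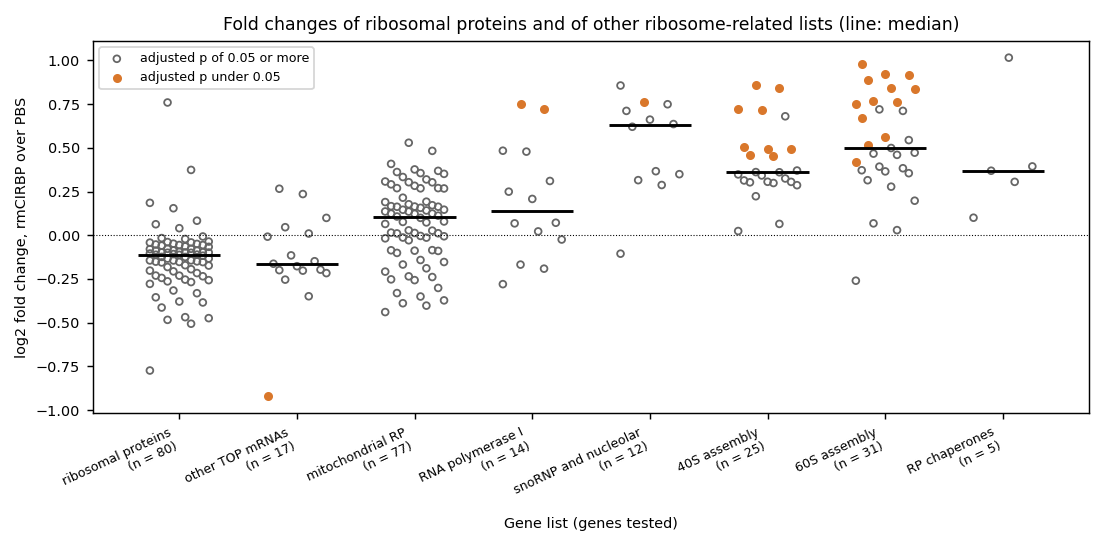
Log2 fold change (rmCIRBP over PBS) of each tested gene in 8 lists, with the median as a line and genes at an edgeR adjusted p under 0.05 in orange. The medians are -0.11 for ribosomal proteins, 0.36 for 40S assembly and 0.50 for 60S assembly, and no ribosomal protein gene is orange.

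Other mRNAs of the TOP class, mostly translation factors, lay on the same side as the ribosomal proteins, with a median of -0.16. Of these, 12 of 17 were below 0, beside 50.8% of all genes. Their median log2 deviation was 0.03 in rmCIRBP 1, above -0.02 in PBS 3, and lowest in rmCIRBP 3 at -0.20. Of the 17, 1 was called lower, beside 4.77% of all genes. That was Eif4b, which helps the initiation helicase. Eif4b fell from 520, 849 and 559 CPM to 389, 317 and 311 CPM, without overlap (log2 fold change -0.92, edgeR quasi-likelihood adjusted p = 0.0278). It was not called when any library other than PBS 1 was left out. The 13 RefSeq starts of this list held the pyrimidine run described above in 53.8% of cases, those of 40S assembly factors in 22.7% and those of 60S assembly factors in 27.6%.

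Lists of regulators of the ribosomal proteins held few calls, near the 11.5% called over all genes. Of 20 genes of mTORC1 and its targets, 1 rose and 1 fell. Eif4e, which binds the mRNA cap, rose from 48.4 ± 6.65 to 82.5 ± 7.48 CPM (SD, n = 3 each; edgeR quasi-likelihood adjusted p = 0.00966), and Sesn3, an inhibitor of mTORC1, fell from 137 ± 27.3 to 70.4 ± 21.7 CPM (adjusted p = 0.0428). Sesn3 was not called without PBS 2, PBS 3 or rmCIRBP 1. Myc, a transcription factor known to drive ribosome assembly genes, was the 1 called gene of 10 in its network. It rose from 22.6, 16.6 and 11.4 CPM to 37.1, 62.7 and 35.4 CPM (log2 fold change 1.42, adjusted p = 0.0224) and was not called without PBS 2 or PBS 3. The network had 2 calls without PBS 1 and 3 without rmCIRBP 3. Of 12 genes of p53 and its targets 1 rose, Trp53 itself, from 76.2 ± 7.24 to 139 ± 32.6 CPM (adjusted p = 0.0175), which was not called without PBS 2. Of 10 ribosome quality control genes 1 rose, Ascc3, which splits collided ribosomes, with a log2 fold change of 0.57 (adjusted p = 0.0145). It was not called without PBS 2 or rmCIRBP 1.

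The 77 proteins of the mitochondrial ribosome that were tested had a median log2 fold change of 0.11. Of these, edgeR's quasi-likelihood test called 0, beside 11.5% of all genes, and DESeq2 called 1, beside 16.6%. An unadjusted p under 0.05 was found for 12 of 77, beside 28.8% of all genes. The log2 fold change was below 0 for 27 of 77, beside 50.8% of all genes. Without PBS 1, 2 were called lower, and with upper quartile scaling 3. Their share of counts was 0.175% in PBS and 0.176% in rmCIRBP.

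Among ribosomal proteins outside the symbol rule, Rack1, a scaffold on the 40S head, was at 871 ± 42.9 and 826 ± 116 CPM, and Fau, which encodes eS30, at 274 ± 21.7 and 254 ± 25.2 CPM (SD, n = 3 each). Their log2 fold changes were -0.08 and -0.11, and that of Rps27rt was -0.11. The retrogene Rpl37rt was at 28.2 ± 5.27 and 22.9 ± 2.64 CPM, with -0.30. Rpl36al had only 7, 10 and 10 reads with PBS and 20, 22 and 10 with rmCIRBP, with the highest value of these genes, 0.86 (edgeR quasi-likelihood adjusted p = 0.229). Of these 5 genes, edgeR and DESeq2 each called 0, and 0 had an unadjusted p under 0.05.

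Marker genes of the culture were checked against its label. Fibroblast markers summed to 26289 to 31015 CPM in PBS and 21199 to 28029 CPM in rmCIRBP, with all 10 detected. Of these 10, edgeR called 1 higher and 2 lower, beside 6.74% and 4.77% of all genes. Epithelial markers summed to under 0.478 CPM in every library, with Krt8 at 0. Of the 5 endothelial markers Tie1 and Emcn were at 0, and their sum was 11.5 to 16.7 CPM with PBS and 0.866 to 2.06 CPM with rmCIRBP. The 6 macrophage markers, all detected, summed to 21.6 to 25.8 CPM with PBS and 28.9 to 50.4 CPM with rmCIRBP. They did not move together: edgeR called 2 higher and 1 lower, with log2 fold changes from -1.65 to 5.52. Of the 6 neutrophil markers Ly6g, S100a9 and Cxcr2 were at 0, with sums of 0 to 0.249 and 1.23 to 1.69 CPM. Smooth muscle and mesothelial markers summed to 1408 to 3546 CPM and 1486 to 7593 CPM, highest in rmCIRBP 2. Whether other cell types were present, and what part they had in the ribosomal protein levels, was not tested.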

How the data were processed

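RNA-seq was measured in 6 libraries, 3 with PBS and 3 with rmCIRBP. The deposited table, made by the authors, holds whole-number read counts for each gene. The submitters' processing notes name featureCounts, the GRCm38 (mm10) build, DESeq2 and R 4.1.2. Neither the aligner and annotation release nor the strand, multi-mapping and overlap settings of the counting are given in the sources used here, so that genes overlapping on opposite strands cannot be told apart. Per the labels' protocols, RNA was extracted with TRIzol and polyA-selected with a TruSeq mRNA kit. Each column name gives a group and a number, which were looked up in the sample titles (0 unmatched). Depth was 12105584 to 14262375 counts per library.

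The counts were fitted over the whole table in R 4.3.3 with edgeR 4.0.16: filterByExpr by group (15801 genes kept, 80 of the 83 members), trimmed mean of M values scaling, the quasi-likelihood F test, two-sided, with treatment as the only term, and Benjamini-Hochberg adjustment over all genes tested at 0.05. Standard errors and 95% intervals were derived from the F statistics. DESeq2 1.42.0, limma 3.58.1 (voom), other scalings and filters, a replicate block, protein-coding genes alone, copies added to members and each library left out were alternatives. Adding all copies, and leaving out each library for the other lists, were chosen after seeing the data. On simulated counts for rmCIRBP against PBS over 15801 genes with 200 changed, edgeR recovered 55% of 2-fold and 93% of 4-fold changes, with 8.07% false among 161 calls.

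Shared sequence and exon overlap were computed from GENCODE vM21, in which all 83 members have the start and end of the deposited table. Coding sequences were aligned with Biopython 1.88.

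The members and gene lists were chosen with earlier results of these data known. Values are given in full for the 8 members with the smallest p, the 3 highest and 3 lowest fold changes, paralog pairs and members with known roles, and of each other list for up to 3 genes with the smallest p. Rpl21, Rpl23, Rpl32, Rps15, Rps18, Rpl17, Rpl19, Rpl24, Rpl27 and Rpl38 were named after their values were seen. Not every ribosomal protein gene outside the symbol rule is reported here.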

Additional observations from a re-analysis of the deposited data

How the results depend on the processing

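The count of called members was 0 under every alternative run except 2, each of which called 1 member, Rps29: no filter on low counts (log2 fold change -0.75, edgeR quasi-likelihood adjusted p = 0.0453) and the replicate block (-0.70, adjusted p = 0.0420). The cause was not tested. Deviations of same-numbered libraries correlated at -0.11, -0.17 and 0.25. With 3 libraries a group, these values cannot decide whether the shared numbers pair the samples. With the replicate block the calls over all genes went from 1818 to 1258, those of 40S assembly factors from 9 to 0 and those of 60S assembly factors from 13 to 8. The calls over all genes also ranged with the test, from 1818 in edgeR to 2618 in DESeq2. The median log2 fold change of the members stayed below 0 in every alternative, from -0.18 with upper quartile scaling, which puts the median of all genes at -0.07, to -0.09 with no filter, and from -0.17 to -0.05 on leaving out 1 library. The difference in the share of counts ranged from -0.47 to -0.20 percentage points on leaving out 1 library. Of the members described in full, Rps10 was -0.073 with named pseudogenes and -0.074 with all copies added, Rpl30 -0.064 with all copies, and Rpl22l1 -0.025 with upper quartile scaling. Rps27l was 0.014 with no filter, 0.00084 with a filter of 1 CPM in 3 libraries, 0.0060 with limma voom and 0.0073 with the block. On leaving out 1 library the sign also changed for Rplp0 (-0.080 to 0.047), Rplp2 (-0.087 to 0.065), Rps3 (-0.14 to 0.015), Rps4x (-0.098 to 0.0043), Rps6 (-0.090 to 0.053), Rps27 (-0.73 to 0.0063), Rps27l (-0.076 to 0.16) and Rpl22l1 (-0.097 to 0.19). With 3 libraries a group and a median standard error of 0.13, the test bounds most members within 2-fold but not small shifts.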

Other observations

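Rps29 and the processed pseudogene Gm14303, which held 40.9% of their joint reads, were both highest in PBS 1, at 171 and 98.4 CPM, so that adding them left the coefficient of variation within groups at 43.2%, against 46.4% for Rps29 alone. The second copy of Rpl30, Rpl30-ps10, was at 26.8, 24.0 and 20.3 CPM with PBS and 24.7, 12.1 and 4.90 CPM with rmCIRBP, and Gm12191 had its lowest values in the same rmCIRBP 2 and rmCIRBP 3 libraries.

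A run of at least 8 pyrimidines near the start was present at 32.0% of the 75 starts of mitochondrial ribosomal protein genes. With a run of at least 10 bases the shares were 54.7% for the cytosolic genes and 14.3% for all others, and with at least 5 they were 97.3% and 77.1%. These are counts of letters in annotated windows, with no test.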
